A study of Mus musculus with 8 samples.

Results

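The T-box genes described here are *Tbx1*, *Tbx2*, *Tbx3*, *Tbx4*, *Tbx5*, *Tbx15*, *Tbx18* and *Tbx20*, 8 of the 54532 entries of the deposited count table, chosen by their gene symbols. RNAseq had been carried out on primary lung fibroblasts (pFBs) grown out of the lungs of female mice on a C57/black background and kept in complete media without treatment. The 4 WT libraries (WT1 to WT4) came from wild type mice and the 4 HOMO libraries (HOMO1 to HOMO4) from mice homozygous for a transgene of human IGFBP5 (hIGFBP5), placed by CRISPR/Cas9 knock-in and meant to be expressed in all tissues. The study ties its HOMO groups to mice, but how many mice or cultures stand behind the 8 libraries is not given in the text or labels used here, so p-values measure only the spread between these libraries. Whether hIGFBP5 itself was expressed was not analysed here.

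T-box proteins are transcription factors that share a DNA-binding domain, the T-box, and bind a short element whose core reads AGGTGT. Some members mainly activate and others mainly repress their targets, and several bind DNA together with Gata4 or Nkx2-5, which lets the same factor act differently in heart, limb and lung. In the developing lung, *Tbx2*, *Tbx3*, *Tbx4* and *Tbx5* are active in the mesenchyme, where they act on branching through *Fgf10* and Wnt ligands.

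Among the T-box genes, *Tbx20* was upregulated in HOMO pFBs, from a mean of 1.10 CPM (counts scaled to library size, scaled with edgeR's TMM method) to 56.3 CPM. *Tbx3* and *Tbx5*, which lie beside each other on chromosome 5, were both downregulated to 0.502 and 0.479 times their WT means. *Tbx4* was lower in every HOMO library than in any WT library without passing the test, *Tbx1* was present in 2 WT libraries and in no other above 1 count, and *Tbx2*, *Tbx15* and *Tbx18* did not pass. Of the 8 genes, all of which had counts, 7 passed edgeR's filter on low counts, and 3 of these were called, 1 upregulated and 2 downregulated. Over all 14150 genes tested 12.1% were called, 5.94% upregulated and 6.18% downregulated. In 4 of the 7, *Tbx3*, *Tbx4*, *Tbx5* and *Tbx20*, the genotypes did not overlap in CPM, against 27.3% of all genes tested. *Tbx20* stood above WT in HOMO and the other 3 below, and over all genes 14% stood apart above and 13.4% below. A call means a Benjamini-Hochberg adjusted p under 0.05 in edgeR's two-sided quasi-likelihood test over all tested genes, together with an absolute log2 fold change (log2FC) above 0.6, the thresholds of the study's methods. The median log2FC of the 7 was -0.83, and of all genes tested -0.04.

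The depth was 17236521 to 29028769 counts for WT and 19009027 to 31987790 for HOMO, and 3 counts, taken as the floor of counting, corresponded to between 0.0908 and 0.172 CPM. WT1 with WT2, HOMO1 with HOMO2 and HOMO3 with HOMO4 formed near-identical pairs, with a biological coefficient of variation between 4.71 and 7.65% against 30.0 to 56.4% for other pairs of a genotype. They differed by more than counting noise (mean chi-square per gene of at least 4.08) and were kept as separate libraries. This does not show that the libraries of a pair came from different mice or cultures, and if they did not, n = 4 libraries stands for fewer independent samples. Results are therefore also given with the 3 pairs summed. In that fit 0 of all 16130 genes tested were called, and without HOMO1 and HOMO2 76 of 14786 were. Calls lost there were thus lost across nearly the whole table. All 9 fibroblast markers examined were tested, and their summed level was 12937 to 16618 CPM in WT and 14002 to 24381 CPM in HOMO, with *Pdgfrb* and *Vim* downregulated. The 5 macrophage markers summed to 109 to 1857 CPM in WT, highest in WT3 and WT4, and to 23.0 to 152 CPM in HOMO. The 4 endothelial markers summed to 1.33 to 4.22 CPM and 1.43 to 4.004 CPM. WT3 and WT4 also stood apart from WT1 and WT2 in several T-box genes, and the part of macrophage RNA in those differences was not tested.

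**Figure D1:**
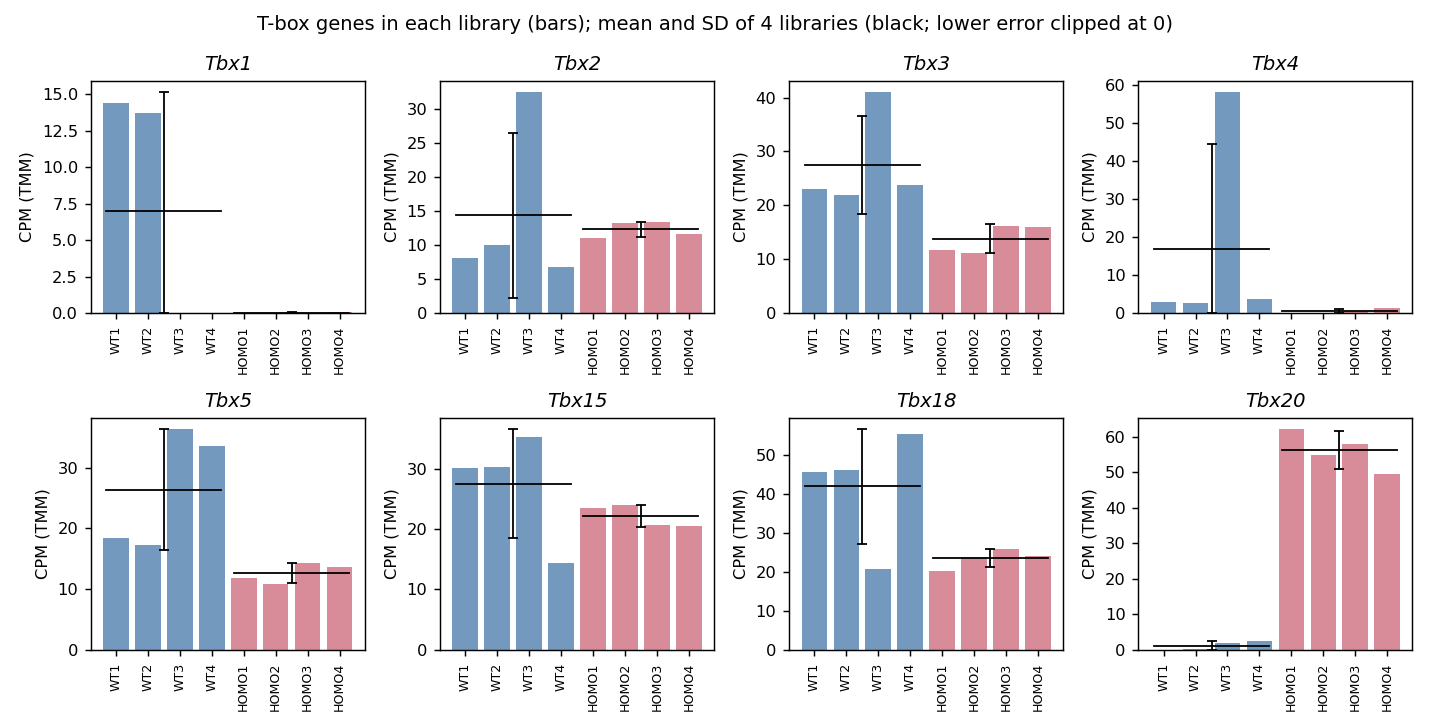
Levels of the 8 T-box genes in CPM (vertical axes, each from 0) in every library, WT in blue and HOMO in red, with the mean and SD of 4 libraries in black. *Tbx20* stood between 49.6 and 62.3 CPM in HOMO and at most 2.48 CPM in WT, while *Tbx1* was seen in WT1 and WT2 and the high *Tbx4* bar belongs to WT3.

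*Tbx1*, *Tbx4* and *Tbx20* were the members that went from clearly counted to near or at the floor of counting between libraries, and their promoter sequences are shown for that reason. The windows run from 250 bases before to 50 bases after the start of transcription, 5′ to 3′ on the gene's strand, as RefSeq gives them on GRCm38.p6, and 4 of the 8 members had a window. Capitals mark matches on either strand to 5 motifs. These were the T-box core given above, the letters AGATAA that GATA factors prefer, the GC box, which reads GGGCGG, the TATA motif in its short form TATAA, and the CCAAT box under its own name. The *Tbx20* window (chr9:24774254-24774553, minus strand) holds 2 GC boxes and 26 CpG dinucleotides, a number reached by 16.9% of all 32851 windows, whose median is 7.
Tbx20: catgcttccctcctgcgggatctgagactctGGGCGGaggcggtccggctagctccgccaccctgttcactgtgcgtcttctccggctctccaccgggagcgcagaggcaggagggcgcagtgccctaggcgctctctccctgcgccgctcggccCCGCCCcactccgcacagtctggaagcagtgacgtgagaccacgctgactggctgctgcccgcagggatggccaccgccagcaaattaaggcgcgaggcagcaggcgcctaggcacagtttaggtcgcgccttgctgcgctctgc

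*Tbx1* has 2 annotated starts. The window of the downstream start (chr16:18588850-18589149, minus strand) holds 2 GC boxes and 26 CpG, and that of the upstream start (chr16:18590622-18590921, minus strand) holds 16 CpG and, at -76 from the start, a T-box core, the only match to that core in the 5 windows of the members. A match to that core stands in 13.7% of all windows.
Tbx1 downstream start: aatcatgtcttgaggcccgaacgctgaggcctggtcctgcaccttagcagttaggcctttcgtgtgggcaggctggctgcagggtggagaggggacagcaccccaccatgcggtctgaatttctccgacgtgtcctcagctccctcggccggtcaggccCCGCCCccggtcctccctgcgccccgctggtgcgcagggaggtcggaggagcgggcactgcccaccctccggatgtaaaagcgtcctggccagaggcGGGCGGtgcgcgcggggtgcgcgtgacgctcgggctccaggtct
Tbx1 upstream start: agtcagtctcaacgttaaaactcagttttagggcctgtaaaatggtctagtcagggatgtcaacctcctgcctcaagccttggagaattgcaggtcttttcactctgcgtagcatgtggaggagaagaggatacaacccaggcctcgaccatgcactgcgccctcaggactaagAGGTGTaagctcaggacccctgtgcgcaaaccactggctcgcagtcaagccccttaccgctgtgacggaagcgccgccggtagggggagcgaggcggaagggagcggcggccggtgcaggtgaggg

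The *Tbx4* window (chr11:85896515-85896814, plus strand) was poorer in CpG, with 8, and holds TATAA on both strands in overlapping letters 83 and 84 bases before the start, and a GC box at -24. TATAA was found in 24.9% and a GC box in 35.7% of all windows. This RefSeq start lies inside the gene as GENCODE draws it (from 85886422), so a further start of *Tbx4* may lie upstream of the window shown.
Tbx4: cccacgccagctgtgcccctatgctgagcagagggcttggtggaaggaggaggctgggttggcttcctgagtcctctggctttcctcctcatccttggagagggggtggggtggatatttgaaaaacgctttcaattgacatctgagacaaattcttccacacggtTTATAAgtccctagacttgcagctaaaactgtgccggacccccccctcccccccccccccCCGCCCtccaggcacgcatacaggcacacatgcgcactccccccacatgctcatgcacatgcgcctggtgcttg

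The *Tbx18* window held a CCAAT box, present in 37.4% of all windows, and 15 CpG. None of the 5 windows held the GATA motif, which stood in 11.2% of all windows. A match is a description of letters and not a binding site, and gene counts do not tell which start was used.

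*Tbx20* (ENSMUSG00000031965.15, chr9:24718138-24774303, minus strand), a repressor and activator needed for heart development and best known from cardiac muscle and valve mesenchyme, showed the change with the smallest adjusted p among the members. In WT1 to WT4 it was counted 0, 2, 32 and 64 times, and in HOMO1 to HOMO4 1398, 1820, 1145 and 989 times, or 0, 0.09, 1.84 and 2.48 CPM against 62.3, 55.1, 58.0 and 49.6 CPM. The lowest HOMO library was far above the highest WT library, HOMO libraries were close to each other, and the few WT counts came nearly all from WT3 and WT4. The log2FC was 5.65 ± 0.97 (SE, adjusted p = 0.0101), with means of 1.10 ± 1.25 CPM in WT and 56.3 ± 5.35 CPM in HOMO (SD, n = 4 libraries each). It was called under 19 of 21 alternatives, the exceptions being the 3 near-identical pairs summed (log2FC 5.31, adjusted p = 0.246) and without HOMO1 and HOMO2 (5.6, adjusted p = 0.133). In such bulk libraries, more cells of a type and more RNA per cell cannot be told apart.

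Cardiac muscle markers were examined beside *Tbx20*. *Myh6*, the alpha heavy chain of cardiac myosin, was counted 0, 0, 0 and 81 times from WT1 to WT4 and 94, 0, 1 and 0 times from HOMO1 to HOMO4. HOMO1, with 94 counts of *Myh6*, held *Tbx20* at 62.3 CPM, and HOMO2 and HOMO4, with 0, held it at 55.1 and 49.6 CPM. WT4, with 81, held it at 2.48 CPM. The part of cardiac muscle RNA in *Tbx20* was not tested. The 6 cardiac markers summed to 4.11 to 20.5 CPM in WT and 5.42 to 13.4 CPM in HOMO. Of these 6, *Tnnt2* and *Tnni3* were tested and neither was called. The 5 mesothelial markers summed to 51.8 to 155 CPM in WT and 92.2 to 131 CPM in HOMO, with *Wt1* the member called. *Upk3b*, *Msln* and *Lrrn4*, which define the lining of the lung, overlapped between genotypes. *Krt19* overlapped too and went the other way from *Wt1*, with means of 16.9 CPM in WT and 2.04 CPM in HOMO. Its log2FC was -3.06 (adjusted p = 0.0856 in edgeR). The part of mesothelial RNA in *Tbx20* was not tested either.

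All 8 genes that the table lists within 200 kb of *Tbx20*, among them *Dpy19l2* and *Cypt4*, had 0 counts in every library. Within this distance *Tbx20* was the only gene with reads, and in HOMO it was counted 989 to 1820 times per library.

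*Tbx3* and *Tbx5* lie 147944 bases apart on the plus strand of chromosome 5. *Tbx3* (ENSMUSG00000018604.18, chr5:119670669-119684724), a repressor that holds back senescence genes such as *Cdkn2a*, had 23.0, 21.9, 41.0 and 23.8 CPM in WT1 to WT4 and 11.7, 11.1, 16.2 and 16.0 CPM in HOMO1 to HOMO4. Every HOMO library was below every WT library, WT3 stood above the other 3 WT libraries, and HOMO3 and HOMO4 stood above HOMO1 and HOMO2. *Tbx3* was downregulated by a log2FC of -0.995 ± 0.25 (SE, adjusted p = 0.0357), from 27.4 ± 9.10 to 13.8 ± 2.71 CPM (SD, n = 4 libraries each). The call was lost when any single HOMO library was left out, with adjusted p between 0.0614 and 0.115, with pairs summed (adjusted p = 0.376), without HOMO1 and HOMO2 (0.360) and without HOMO3 and HOMO4 (0.0690), while the log2FC stayed between -1.25 and -0.65 under all 21 alternatives.

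*Tbx5* (ENSMUSG00000018263.11, chr5:119832668-119885219), an activator of forelimb, heart and lung bud genes, had 18.4, 17.2, 36.4 and 33.6 CPM in WT1 to WT4 and 11.9, 10.8, 14.3 and 13.6 CPM in HOMO1 to HOMO4. The genotypes did not overlap, and WT3 and WT4 lay well above WT1 and WT2. *Tbx5* was downregulated by a log2FC of -1.06 ± 0.28 (SE, adjusted p = 0.0391), from 26.4 ± 10.01 to 12.6 ± 1.59 CPM. Without WT3 and WT4 the log2FC was -0.50 (adjusted p = 0.0406), below the threshold of 0.6, and limma-voom with sample quality weights gave -0.46. For every gene, limma-voom gave WT3 and WT4 little weight (0.0927 and 0.164, against 2.24 for WT1 and 8.14 for WT2), so both fits rest mainly on WT1 and WT2. The call was also lost without WT3 (-0.87, adjusted p = 0.0509), without WT4 (-0.92, adjusted p = 0.0685), without any single HOMO library (adjusted p between 0.0737 and 0.122), without either HOMO pair (0.113 and 0.364), with the replicate block (0.0569) and with pairs summed (0.347), or under 12 of 21 alternatives in all.

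Per kb of exon, *Tbx5* stood at 1.11 to 1.99 times *Tbx3* in WT libraries and at 1.20 to 1.44 times in HOMO libraries. WT4 held the highest of these ratios, and the other 3 WT libraries lay between 1.11 and 1.26. The opposite-strand transcripts of this locus, *Tbx3os1* and *Tbx3os2*, had at most 9 counts and 1 count per library. Between both genes lies *Gm43050*, a noncoding RNA that starts 748 bases from *Tbx5*, and it had a log2FC of -0.06 ± 0.42 (SE, adjusted p = 0.942).

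*Tbx2* and *Tbx4* form a like pair on the plus strand of chromosome 11, 44474 bases apart. *Tbx4* (ENSMUSG00000000094.12, chr11:85886422-85916097), an activator of hindlimb and lung mesenchyme genes and a marker of lung fibroblast lineages, was counted 53, 59, 1014 and 96 times from WT1 to WT4 and 0, 2, 13 and 25 times from HOMO1 to HOMO4. In CPM these were 2.98, 2.53, 58.2 and 3.72 against 0, 0.06, 0.66 and 1.25. The genotypes did not overlap, WT3 stood far above all others, and HOMO1 and HOMO2 were at the floor of counting. The log2FC was -5.14 ± 1.52 (SE, adjusted p = 0.0571), which missed the threshold, and without WT3 it was -2.69 (adjusted p = 0.107). *Tbx4* was called without a filter on low counts (adjusted p = 0.0474), with limma-voom (-3.14, adjusted p = 0.0187) and without WT1 and WT2 (-6.03, adjusted p = 0.0284). It was not called with the pairs summed (-5.43, adjusted p = 0.376), and DESeq2 gave -5.10 without a p-value.

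*Tbx2* (ENSMUSG00000000093.6, chr11:85832551-85841948), a repressor that keeps lung mesenchyme proliferating, had 8.16, 10.04, 32.5 and 6.77 CPM in WT1 to WT4 and 11.01, 13.2, 13.3 and 11.7 CPM in HOMO1 to HOMO4. The HOMO libraries lay above WT1, WT2 and WT4 and below WT3. The log2FC was -0.22 ± 0.48 (SE, 95% interval -1.39 to 0.94, adjusted p = 0.782), and it turned to 0.56 without WT3 (adjusted p = 0.0671). Both genes of this pair were highest in WT3. Leaving that library out, *Tbx4* was higher in WT than in HOMO and *Tbx2* was not. *Bcas3*, 6493 bases from *Tbx2*, had a log2FC of -0.40 ± 0.26 (SE, adjusted p = 0.317).

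WT3, which held the highest *Tbx2*, *Tbx3*, *Tbx4*, *Tbx5* and *Tbx15* levels, also held the highest smooth muscle and pericyte marker sum, 2511 CPM against at least 754 CPM in the other WT libraries and 197 to 1398 CPM in HOMO. *Acta2* made up most of the WT3 sum, at 2418 CPM, and *Myh11* (53.9 CPM), *Tagln* and *Des* were also highest in WT3. *Rgs5* went the other way, at 0.689 CPM in WT3 against 3.32, 3.86 and 36.1 CPM in WT1, WT2 and WT4. *Cspg4* was 2.07 CPM in WT3 and 2.48 CPM in WT1. The mesothelial sum was likewise higher in WT3 and WT4 than in WT1 and WT2, with *Msln* at 30.6 CPM in WT3 and 3.64 CPM in WT4. *Krt19*, also on the mesothelial list, went the other way. It had 35.4 and 28.4 CPM in WT1 and WT2 and 3.27 and 0.581 CPM in WT3 and WT4. The part of these cell types in the WT3 values was not tested.

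*Tbx18* (ENSMUSG00000032419.8, chr9:87702800-87731260, minus strand), a repressor active in sinus node, epicardium and mural cells, had 45.6, 46.0, 20.8 and 55.2 CPM in WT1 to WT4 and 20.3, 23.9, 25.7 and 24.2 CPM in HOMO1 to HOMO4. WT1, WT2 and WT4 lay above every HOMO library, and WT3 fell among the HOMO libraries. The log2FC was -0.83 ± 0.27 (SE, adjusted p = 0.0759), and *Tbx18* was not called. Without WT3 it was called (-1.06, adjusted p = 0.00312), as it was by DESeq2 (-0.84, adjusted p = 0.0423). *Tbx18* was called under 4 of 21 alternatives, and not with the pairs summed (-0.77, adjusted p = 0.491). Of its exon bases, 970 (20.6%) are shared with *D030062O11Rik* on the opposite strand, which had 0.716 CPM in WT and 1.33 CPM in HOMO, and whether the counting used strand is not stated. The median gene of chromosome 9 stood 0.24 higher on the log2 scale in WT3 than in the other WT libraries, where *Tbx18* stood lower.

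*Tbx15* (ENSMUSG00000027868.11, chr3:99240381-99354259, plus strand), a repressor that acts in skeletal and fat development, had 30.2, 30.2, 35.3 and 14.4 CPM in WT1 to WT4 and 23.4, 24.1, 20.6 and 20.6 CPM in HOMO1 to HOMO4. WT4 stood below every HOMO library and the other 3 WT libraries above. The log2FC was -0.31 ± 0.26 (SE, 95% interval -0.94 to 0.32, adjusted p = 0.436). The median gene of chromosome 3 stood 0.37 higher on the log2 scale in WT3 than in the mean of the other 3 WT libraries, and the part of this in *Tbx15* was not tested. *Wars2*, 1195 bases away, had a log2FC of 0.45 (adjusted p = 0.164 in edgeR).

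*Tbx1* (ENSMUSG00000009097.10, chr16:18580979-18590671, minus strand), the gene best known from the pharyngeal arches and DiGeorge syndrome, split the WT libraries. Its counts were 256, 319, 0 and 0 in WT1 to WT4 and 0, 0, 0 and 1 in HOMO1 to HOMO4. WT1 and WT2, a near-identical pair, held 14.4 and 13.7 CPM, and the other 6 libraries, WT3 and WT4 among them, held at most 0.05 CPM. *Tbx1* did not pass the filter on low counts, and the two-sided exact permutation test on CPM (70 ways to divide the libraries 4 against 4) gave p = 0.429, where the smallest possible is 0.0286. Without WT1 and WT2 the difference of HOMO from WT was 0.0124 CPM, below the floor of counting. Without WT3 and WT4 edgeR called *Tbx1* downregulated (log2FC -9.77, adjusted p = 1.71e-04). That fit leaves out the WT libraries with 0 counts and keeps only the near-identical pair that held *Tbx1*. Its call therefore follows from the choice of libraries and is no further evidence. Without a filter on low counts *Tbx1* was also called by edgeR (-8.74, adjusted p = 0.0379), and DESeq2 called it at -9.08 (adjusted p = 0.0421). Without HOMO1 and HOMO2 or without HOMO3 and HOMO4 edgeR did not call it (adjusted p = 0.391 and 0.213).

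Of the 8 genes of the table within 200 kb of *Tbx1* that were tested, *Sept5*, a septin 29831 bases away, was called, at -0.69 ± 0.18 (SE, adjusted p = 0.0360). Its counts in WT1 to WT4 were 402, 545, 454 and 700, so that, unlike *Tbx1*, it was counted in all 4 WT libraries. Apart from *Sept5*, *Tbx3* and *Tbx5*, no tested gene within 200 kb of a member was called.

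To compare levels between genes, CPM was divided by the length of all annotated exons in kb. In WT, the order of means was *Tbx18* (8.89 CPM per kb), *Tbx15* (7.35), *Tbx5* (5.65), *Tbx4* (4.96), *Tbx3* (4.14), *Tbx2* (3.96), *Tbx1* (1.996) and *Tbx20* (0.0917). Every gene overlapped its neighbours in this order over the 4 WT libraries, and *Tbx4* took its rank through WT3, since it was between 0.744 and 1.09 CPM per kb in the other 3. In HOMO, the order was *Tbx15* (5.92 ± 0.491 CPM per kb), *Tbx18* (4.99 ± 0.489), *Tbx20* (4.69 ± 0.446), *Tbx2* (3.39 ± 0.314), *Tbx5* (2.70 ± 0.339), *Tbx3* (2.08 ± 0.409), *Tbx4* (0.145 ± 0.173) and *Tbx1* (0.00356). *Tbx18* and *Tbx20*, *Tbx2* and *Tbx5*, and *Tbx5* and *Tbx3* overlapped there. With the longest coding transcript as length, *Tbx20* in HOMO came to 6.19 CPM per kb, next to *Tbx15* at 6.22.

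Over all T-box genes of the table, the summed level per kb was 34.5 to 57.1 in WT and 30.0 to 32.8 in HOMO. *Tbx20* made up 0 to 0.599% of this sum in WT libraries and 13.8 to 15.8% in HOMO libraries. *Tbx18* ranked first in WT1, WT2 and WT4 (25.2, 25.5 and 33.9%), *Tbx4* in WT3 (30.0%), and *Mga*, a large T-box protein that pairs with Max, in all 4 HOMO libraries (17.8 to 24.9%). *Tbx1* made up 10.7 and 10.2% in WT1 and WT2.

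**Figure D2:**
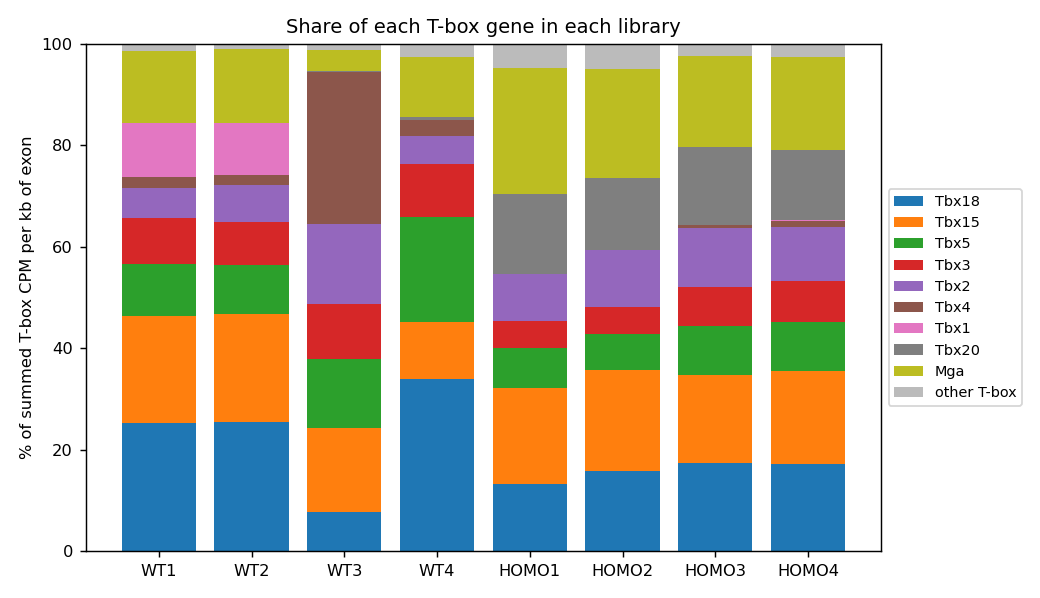
Share of each T-box gene (vertical axis, percent) in the summed CPM per kb of exon of all T-box genes, by library. The *Tbx20* segment is 13.8 to 15.8% in HOMO libraries and at most 0.599% in WT libraries, and *Tbx4* makes up 30.0% of WT3.

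The WT libraries varied more among themselves. With each near-identical pair taken as a single unit, WT held 3 units and HOMO 2. The spreads compared may therefore not rest on like numbers of independent samples. In all 7 tested members the coefficient of variation of CPM was higher in WT than in HOMO, as it was in 81.6% of all genes for which it could be computed. Its median over the 7 was 37.9% in WT and 9.82% in HOMO, against 30.6% and 14.2% over all genes. *Tbx4* varied most in both genotypes, by 164% and 119%, and *Tbx15* least, by 33.0% and 8.30%.

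Across the 8 libraries, which share the near-identical pairs and the genotype difference, log2 CPM of *Tbx3* ran closely with *Tbx4* (Pearson's r = 0.98) and *Tbx5* (0.91), although *Tbx4* lies on another chromosome. *Tbx2* and *Tbx4*, neighbours on chromosome 11, stood at 0.41, *Tbx2* and *Tbx18* at -0.72, and *Tbx1* and *Tbx20* at -0.84. The genes most like each member over these libraries were *Ccdc8*, *Casz1* and *Rassf2* for *Tbx20* (r from 0.98 to 0.99, all 3 upregulated) and *Tmed2*, *Ostf1* and *Jade1* for *Tbx3* (at least 0.99, all 3 downregulated). They were *S100a10*, *Elk3* and *Qpctl* for *Tbx4*, *Vamp3*, *Nus1* and *Cdc42* for *Tbx5*, and *Id3*, *Ccdc68* and *Gcnt2* for *Tbx18*. For *Tbx2* they were *Gm43050*, *Gstt3* and *Atp5c1*, and for *Tbx15* *Gm45412*, *Isyna1* and *Vash2*. *Gm43050* lies beside *Tbx5*, not *Tbx2*. With 8 libraries high values are common, and 5.61% of all genes stood above 0.9 with *Tbx3* and 2.52% with *Tbx20*.

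Of 10 symbols listed for the rest of the family, 9 were in the table, 7 had counts, 2 were tested and 0 were called by edgeR, with 0 of these at an unadjusted p under 0.05. *Mga* had 1467, 1987, 628 and 1626 counts in WT and 2812, 3508, 1704 and 1687 in HOMO, with a log2FC of 0.59 ± 0.27 (SE, adjusted p = 0.167). WT3 was low and the genotypes overlapped in CPM. *Tbx6*, a factor of paraxial mesoderm, had 13 to 34 counts in WT and 18 to 59 in HOMO, and its log2FC was 0.54 ± 0.38 (SE, adjusted p = 0.355).

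*Eomes*, which acts in early mesoderm and in cytotoxic lymphocytes, did not pass the filter on low counts, with 2, 5, 1 and 6 counts in WT and 44, 81, 8 and 10 in HOMO. Every HOMO library was above every WT library, and HOMO1 and HOMO2 held most of the counts. The two-sided exact permutation test on CPM gave p = 0.0286, the smallest it can give and its value for any gene without overlap. Of all genes tested by edgeR, 27.3% showed no overlap. The permutation test also takes the 8 libraries as independent, which the near-identical pairs may not be. Without a filter edgeR called *Eomes* upregulated (log2FC 3.04, adjusted p = 0.0377), as did DESeq2 (3.08, adjusted p = 0.00198). EdgeR also called it without HOMO3 and HOMO4 (adjusted p = 0.0221) and without HOMO3, WT3 or WT4 alone. It was not called with the pairs summed (adjusted p = 0.326), without WT1 and WT2 (0.0812) or without WT3 and WT4 (0.0663). Nor was it called without WT1 (0.0648) or without WT2 (0.0604). *T*, *Tbx10*, *Tbx21* and *Tbr1* had at most 4 counts in any library, and *Tbx19* and *Tbx22* had 0.

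T-box proteins act with partner factors and on targets that textbooks name, and 34 such genes were listed. Of these, 22 were tested and 6 called by edgeR, 3 upregulated and 3 downregulated (27.3%, against 12.1% of all genes). The median log2FC of the 22 was -0.16. The list was chosen with earlier results of these data known, so its share of calls is a description and no test. With the pairs summed 0 were called, as over all genes, and without HOMO1 and HOMO2 1 was, against 76 over all genes. Among 10 tested partners, *Gata4* and *Wt1* were upregulated and *Mef2c* was downregulated. *Gata4*, which binds DNA together with Tbx5 and Tbx20 in heart cells, had 106, 139, 58 and 42 counts in WT and 2750, 3937, 1933 and 1895 in HOMO. The genotypes lay far apart, with 4.22 ± 2.13 CPM in WT and 109 ± 14.2 CPM in HOMO (SD, n = 4 libraries each) and a log2FC of 4.69 ± 0.41 (SE, adjusted p = 8.33e-04). Its call was lost with the pairs summed (adjusted p = 0.108).

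*Wt1*, a zinc-finger factor of mesothelium and a mesothelial marker here, had 1.13, 1.12, 8.66 and 2.13 CPM in WT and 36.8, 40.6, 29.0 and 26.8 CPM in HOMO. Its log2FC was 3.36 ± 0.67 (SE, adjusted p = 0.0166), and the call was lost under 5 of 21 alternatives, with pairs summed (adjusted p = 0.298), without HOMO1 and HOMO2 together (0.194), without HOMO3 and HOMO4 together (0.0560), without HOMO1 (0.0535) and without HOMO2 (0.0556). *Mef2c*, a partner in cardiac and vascular muscle, had 8.16, 8.67, 11.6 and 10.99 CPM in WT and 0.134, 0.182, 0.811 and 2.01 CPM in HOMO. Its log2FC was -3.68 ± 0.77 (SE, adjusted p = 0.0197). The call of *Mef2c* was lost under 4 of 21 alternatives, with pairs summed (adjusted p = 0.285), without HOMO1 and HOMO2 together (0.0735), without HOMO2 (0.0551) and without HOMO3 (0.0531).

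Partners of the same tissues that missed the test included *Gata6*, with a log2FC of 1.03 (adjusted p = 0.0804 in edgeR) and no overlap between genotypes, and *Hand2*, at 2.36 (adjusted p = 0.127) with at most 24 counts. *Tcf21*, a factor of lung lipofibroblasts and epicardium, had 48.1, 57.1, 5.39 and 47.7 CPM in WT and 2.85, 3.90, 12.1 and 11.3 CPM in HOMO. WT3 lay among the HOMO libraries, as it did for *Tbx18*, and without it *Tcf21* was called (-2.76, adjusted p = 0.0127 in edgeR). *Nkx2-5*, the cardiac partner of Tbx5 and Tbx20, had at most 3 counts in any library, and *Isl1* at most 1.

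Among 12 tested targets, *Cdh1* was upregulated and *Aldh1a2* and *Wnt2b* were downregulated. *Aldh1a2*, which makes retinoic acid, had 3589, 4800, 177 and 1042 counts in WT and 5, 7, 26 and 3 in HOMO. Like *Tbx1* it was highest in WT1 and WT2, but WT3 and WT4 stayed above every HOMO library, and its log2FC was -7.96. Its call was lost with pairs summed (adjusted p = 0.246) and without HOMO1 and HOMO2 (0.163). *Cdh1*, the epithelial cadherin that Tbx2 and Tbx3 repress in other cells, had 0.06, 0.34, 0 and 0.50 CPM in WT and 1.16, 1.42, 1.88 and 2.21 CPM in HOMO, with a log2FC of 2.77 ± 0.76 (SE, adjusted p = 0.0462). It is also among the 5 epithelial markers, whose sum was 0.0574 to 0.542 CPM in WT and 1.34 to 13.6 CPM in HOMO, and the part of epithelial RNA in *Cdh1* was not tested. Its call was lost under 12 of 21 alternatives, with adjusted p up to 0.383 (pairs summed), among them no filter on low counts, the replicate block, leaving out WT1 or WT2, and leaving out any single HOMO library.

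*Wnt2b*, a lung-inducing ligand downstream of Tbx4 and Tbx5, had 60, 59, 16 and 50 counts in WT and 16, 25, 16 and 18 in HOMO. In CPM its genotypes barely stood apart (0.918 in WT3 against 0.902 in HOMO4), with a log2FC of -1.46 ± 0.41 (SE, adjusted p = 0.0482) whose call was lost under 15 of the 20 alternatives that gave a value. *Fgf10*, the branching signal that Tbx4 and Tbx5 act on, had 51.0, 62.5, 125 and 442 CPM in WT and 34.3, 36.1, 72.5 and 74.2 CPM in HOMO. WT4 stood far above, WT1 and WT2 lay among the HOMO libraries, and the log2FC was -1.65 ± 0.68 (SE, adjusted p = 0.136). *Wnt2* had 2, 5, 5 and 13 counts in WT and 0, 0, 1 and 0 in HOMO, and it did not pass the filter on low counts. Without that filter edgeR gave an adjusted p of 0.0526, and DESeq2 called it downregulated (adjusted p = 0.0137).

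Of the targets that Tbx2 and Tbx3 repress in senescence, *Cdkn2a* had a log2FC of -0.83 ± 0.35 (SE, adjusted p = 0.142) and *Cdkn1a* of -0.57 ± 0.27 (SE, adjusted p = 0.180), and neither was called. *Gja1*, the gap junction protein connexin 43, had an adjusted p of 0.0469 in edgeR with a log2FC of -0.59, just short of the threshold of 0.6. *Shox2*, a sinus node gene, had 0.563, 0.643, 13.7 and 6.89 CPM in WT and 25.6, 26.0, 26.5 and 26.1 CPM in HOMO. The 4 HOMO libraries were alike and above all WT libraries, and the log2FC of 2.26 ± 0.88 (SE) had an adjusted p of 0.118 in edgeR. The cardiac targets *Nppa* and *Hcn4* had at most 12 counts in any library.

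**Figure D3:**
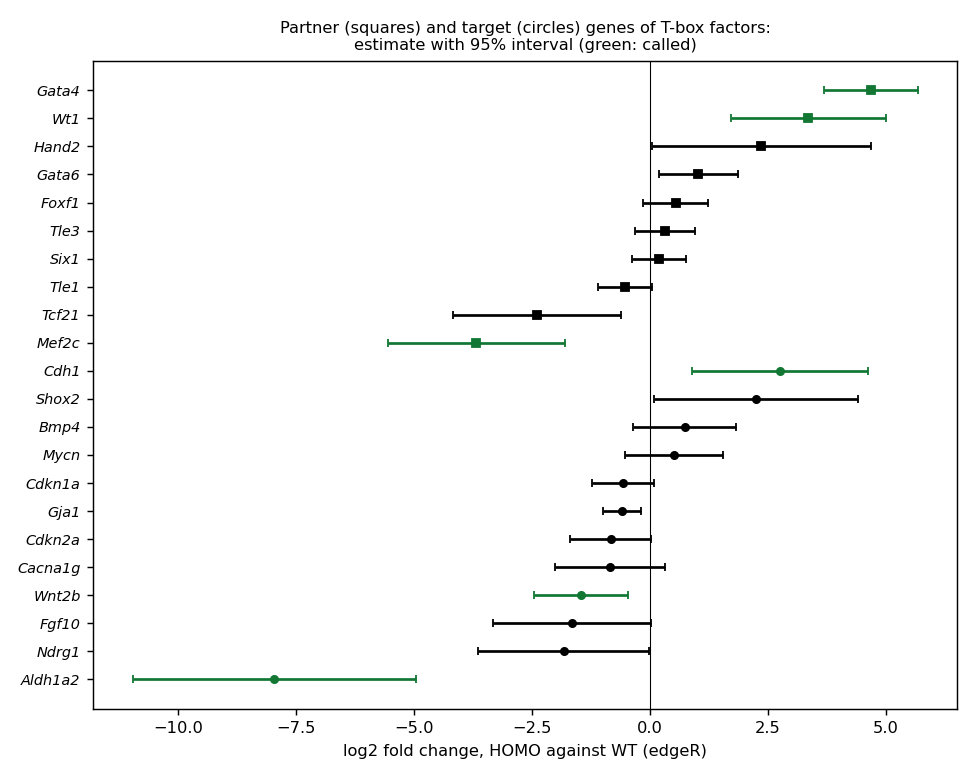
Log2 fold changes of HOMO against WT (horizontal axis) with 95% intervals for the 22 tested partners (squares) and targets (circles) of T-box factors, called genes in green. *Gata4* lies at 4.69 with a narrow interval, and *Aldh1a2* at -7.96.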

How the data were processed

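The values used are gene counts, not normalized, that the authors deposited after trimming with fastp, alignment to mm10 by STAR and counting by featureCounts. CASAVA and DESeq2 are also named in the submitters' processing notes. Tool versions, the annotation and the strand setting are not given in the sources used here, and the table carries a label, "outlierout", that the sources do not explain. All 8 libraries were used.

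The T-box members, gene lists and tests were chosen with earlier results of these data known. Named genes were all members, the rest of the family, opposite-strand transcripts and genes within 10 kb, listed partners and targets, and the 3 tested genes with the highest Pearson correlation to each member over log2 CPM (prior count 2). *Sept5*, *Dpy19l2* and *Cypt4*, farther away, were named after their values were seen. Symbols were matched to GENCODE M21 (GRCm38) for positions and exon length, for 53954 of 54532 entries, and 100 symbols had several entries. A gene of the list of targets is not reported here.

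Counts were fitted with R 4.3.3 and edgeR 4.0.16 (TMM, filterByExpr by genotype, quasi-likelihood F test, 14150 genes). Standard errors (SE) were derived from log2FC and F (absolute log2FC over root F), and 95% intervals use them with 6 residual degrees of freedom. Alternatives were DESeq2 1.42.0, limma-voom (limma 3.58.1), other normalizations and filters, the replicate number as a block, libraries and pairs left out, and near-identical pairs summed. A gene-length alternative, the longest coding transcript, was added after the data were seen. The 95% intervals carry the spread between these libraries, whereas the floors of counts cover counting error only.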

Additional observations from a re-analysis of the deposited data

Results flagged for a closer look

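In 6 of 81 groups of 4 libraries examined, a single library stood apart from the other 3, and 4 of these 6 were WT3. The gap used is one that chance gives in about 1 group of 20, and 6 of 81 is not far above that rate. The rate holds for 4 independent libraries, which the near-identical pairs may not be, so the 6 are a description only. In log2 CPM, WT3 stood at 5.36 for *Tbx3*, against 4.46 to 4.58 in the other WT libraries, and at 5.86 for *Tbx4*, against 1.39 to 1.93. Both T-box genes were thus higher in WT3. For *Tcf21* (2.46 against 5.58 to 5.84) and the corepressor *Tle3* (5.78 against 6.90 to 7.06) WT3 was lower. In HOMO, HOMO3 stood apart for *Aldh1a2*, at 0.49 against -2.06 to -1.68, and HOMO4 for *Gata5*, at -1.56 against -3.49 in the other 3, which had 0 counts.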

How the results depend on the processing

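The count of T-box members called was 3, and it became 5 with no filter on low counts and with DESeq2, 1 without HOMO3 and HOMO4, 0 without HOMO1 and HOMO2, 0 with near-identical pairs summed, and 1 to 3 when single libraries were left out. Where it was 0, 2 and 4 members had an unadjusted p under 0.05. Over all genes, 1716 were called, against 2913 in DESeq2, 3573 in limma-voom, 3271 without WT1 and WT2, 3117 without WT3 and WT4, 76 without HOMO1 and HOMO2, 913 without HOMO3 and HOMO4, 0 with pairs summed (2057 at an unadjusted p under 0.05) and 507 to 2192 when single libraries were left out. The rest of the family went from 0 to 1 call with no filter, DESeq2 or limma-voom, without WT1 and WT2 and without HOMO3 and HOMO4, and gave 0 to 1 with single libraries left out. Partners and targets went from 6 calls to 12 in DESeq2, 11 in limma-voom, 0 with pairs summed, 11 without WT1 and WT2, 13 without WT3 and WT4, 1 without HOMO1 and HOMO2, 3 without HOMO3 and HOMO4, and 2 to 11 with single libraries left out. Causes were not tested, though summed or dropped libraries leave fewer samples.

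Signs turned for *Tbx2*, to 0.34 in limma-voom, 0.10 with the replicate block, 0.56 without WT3 (-0.46 to 0.56 with single libraries left out) and 0.43 without WT3 and WT4, and for *Tbx1*, to 0.0124 CPM without WT1 and WT2. *Tbx20* stayed positive under all 21 alternatives (4.69 to 10.02), and *Tbx3*, *Tbx4*, *Tbx5*, *Tbx15* and *Tbx18* negative. Same-numbered WT and HOMO libraries did not deviate together (r from -0.12 to 0.01, against -0.17 to 0.17 for differently numbered ones). With so few libraries, several of them near-identical, these values cannot decide whether the numbers pair the samples. With the replicate number as a block, 947 genes and 2 members were called, and *Tbx5* was not (adjusted p = 0.0569 in edgeR). At these depths 0 counts allow up to 0.0908 to 0.172 CPM, depending on the library.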
